A study of Chlamydomonas reinhardtii with 34 samples.

Results

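The 7 enzymes described here carry out early steps of tetrapyrrole synthesis in the green alga Chlamydomonas reinhardtii, between glutamyl-tRNA and protoporphyrin IX. They are not every step of that route. They are glutamyl-tRNA reductase (Cre07.g342150), glutamate semialdehyde aminotransferase (Cre03.g158000), 5-aminolevulinate (ALA) dehydratase (Cre02.g091050), porphobilinogen deaminase (Cre16.g663900), uroporphyrinogen decarboxylase (Cre11.g467700), coproporphyrinogen oxidase CPX1 (Cre02.g085450) and protoporphyrinogen oxidase PPX1 (Cre09.g396300). They were chosen as a list of loci, matched to the part of each identifier before the transcript suffix, and all 7 were present among the 17301 gene models of the deposited table. All 7 passed the filter on low values, a mean of at least 1 RPKM (read counts scaled by transcript length and by library size) over the 34 libraries, as did 14513 gene models in all. The enzyme names are those of that list, because neither the table nor the reference annotation pairs the identifiers with names.

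RNA was sequenced from cultures of sta6 (CC-4348), a starchless mutant defective in the small subunit of ADP-glucose pyrophosphorylase, and of CC-4349, a strain set against it that makes starch. Both strains were grown in HSM, a minimal salt medium, in light of 25 µmol photons per m2 and s, and the cells were then washed into the same medium lacking ammonium chloride. Acetate was added once 48 h had passed without nitrogen, which is called the boost below. Sampling covered 17 time points per strain. The first was taken before the wash, the second at 0 h, and the starvation samples followed after 0.5, 2, 4, 8, 12, 24 and 48 h. The boost had samples of its own, starting with its 0 h sample and ending 48 h later. There was 1 library per strain and time point, so time points of a phase stand in for replicates and every p-value measures the spread between time points, not between cultures. Replete cells comprise the sample before the wash and that of 0 h, the start of starvation (n = 2 per strain). The 0 h sample came after the wash, so the replete pair, and each change against it, also holds any effect of the wash, which was not tested. Early starvation comprises the samples of 0.5, 2 and 4 h (n = 3), middle starvation those of 8 and 12 h (n = 2), and late starvation those of 24 and 48 h together with the 0 h sample of the boost (n = 3). The early boost comprises its samples of 0.5, 2 and 4 h (n = 3) and the late boost those of 8, 12, 24 and 48 h (n = 4). Values of a phase are printed in order of time. Each strain is 1 strain in this design, so the sta6 mutation and any other difference between the strains cannot be told apart.

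All tetrapyrroles of the chloroplast, chlorophyll and heme among them, are built from ALA, which plants and algae make from glutamate bound to its transfer RNA. The first enzyme of that route, glutamyl-tRNA reductase, is the main point of control, and it is inhibited by heme and by regulatory proteins. Protoporphyrin IX, the product of the last enzyme described here, is where the pathway divides into a magnesium branch that leads to chlorophyll and an iron branch that leads to heme and, from heme, to bilins. Chlamydomonas is known to lose chlorophyll when nitrogen is withdrawn.

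Sequencing depth, recovered as a relative value from the steps between low RPKM values, ranged from 0.316 to 2.98 times that of the median library in sta6 and from 0.588 to 1.33 times in CC-4349. The shallowest library was sta6 at 2 h without nitrogen, where 1 read was worth a median of 0.126 RPKM over 2038 genes. Depth in sta6 went with time. Its libraries from before the wash to 2 h lay between 0.316 and 0.513 times the median library. Those from 4 to 48 h without nitrogen lay between 1.23 and 1.95 times it, so replete and later libraries of sta6 differed in depth. The levels of all 7 enzymes lay above 1.8 RPKM in every library. The locus used to check the strain labels, Cre03.g188250, lay between 0.957 and 7.45 RPKM in the 17 sta6 libraries and between 100.2 and 304 RPKM in the 17 CC-4349 libraries, so no library stood in the range of the other strain. As deposited, the median gene stood above its replete level, by 0.23 on the log2(RPKM + 1) scale in early starvation, 0.24 in middle starvation and 0.26 in late starvation. Median-of-ratios scaling brought these medians to 0.04, 0.01 and 0.01 and turned the majority of early starvation calls, with 667 genes higher and 1108 lower in place of 1071 higher and 687 lower. Medians of the 7 are therefore given with the median of all genes beside them.

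Glutamyl-tRNA reductase had the highest mean level of the 7 transcripts in both strains, and PPX1 the lowest. In CC-4349 the rank of the reductase came from its libraries of 0.5 to 12 h, since its median of 72.4 RPKM stood below those of ALA dehydratase, 86.9 RPKM, and CPX1, 81.1 RPKM. Averaged over the time course, the level of glutamyl-tRNA reductase was 109 ± 23.6 RPKM in sta6, against 105 ± 57.8 RPKM in CC-4349 (SD, 17 time points). The level of PPX1 stood at 29.95 ± 15.5 RPKM in sta6, against 19.6 ± 8.11 RPKM in CC-4349. Between these stood CPX1, with 93.7 ± 67.2 RPKM in sta6, against 81.3 ± 30.2 RPKM in CC-4349, and ALA dehydratase, with 77.3 ± 34.9 RPKM in sta6, against 88.3 ± 20.1 RPKM in CC-4349. Uroporphyrinogen decarboxylase, porphobilinogen deaminase and glutamate semialdehyde aminotransferase averaged between 46.4 and 53.7 RPKM in sta6 and between 44.3 and 47.6 RPKM in CC-4349, and neighbours among these 3 differed by less than their SD over time. RPKM values are per transcript length, which puts genes on a common scale. The unit was inferred and the counting rule is not known, so the order of the genes by level holds only within that limit. RPKM values are also shares of the RNA of a culture, in which fewer cells with a transcript and less of it per cell cannot be told apart.

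**Figure D1:**
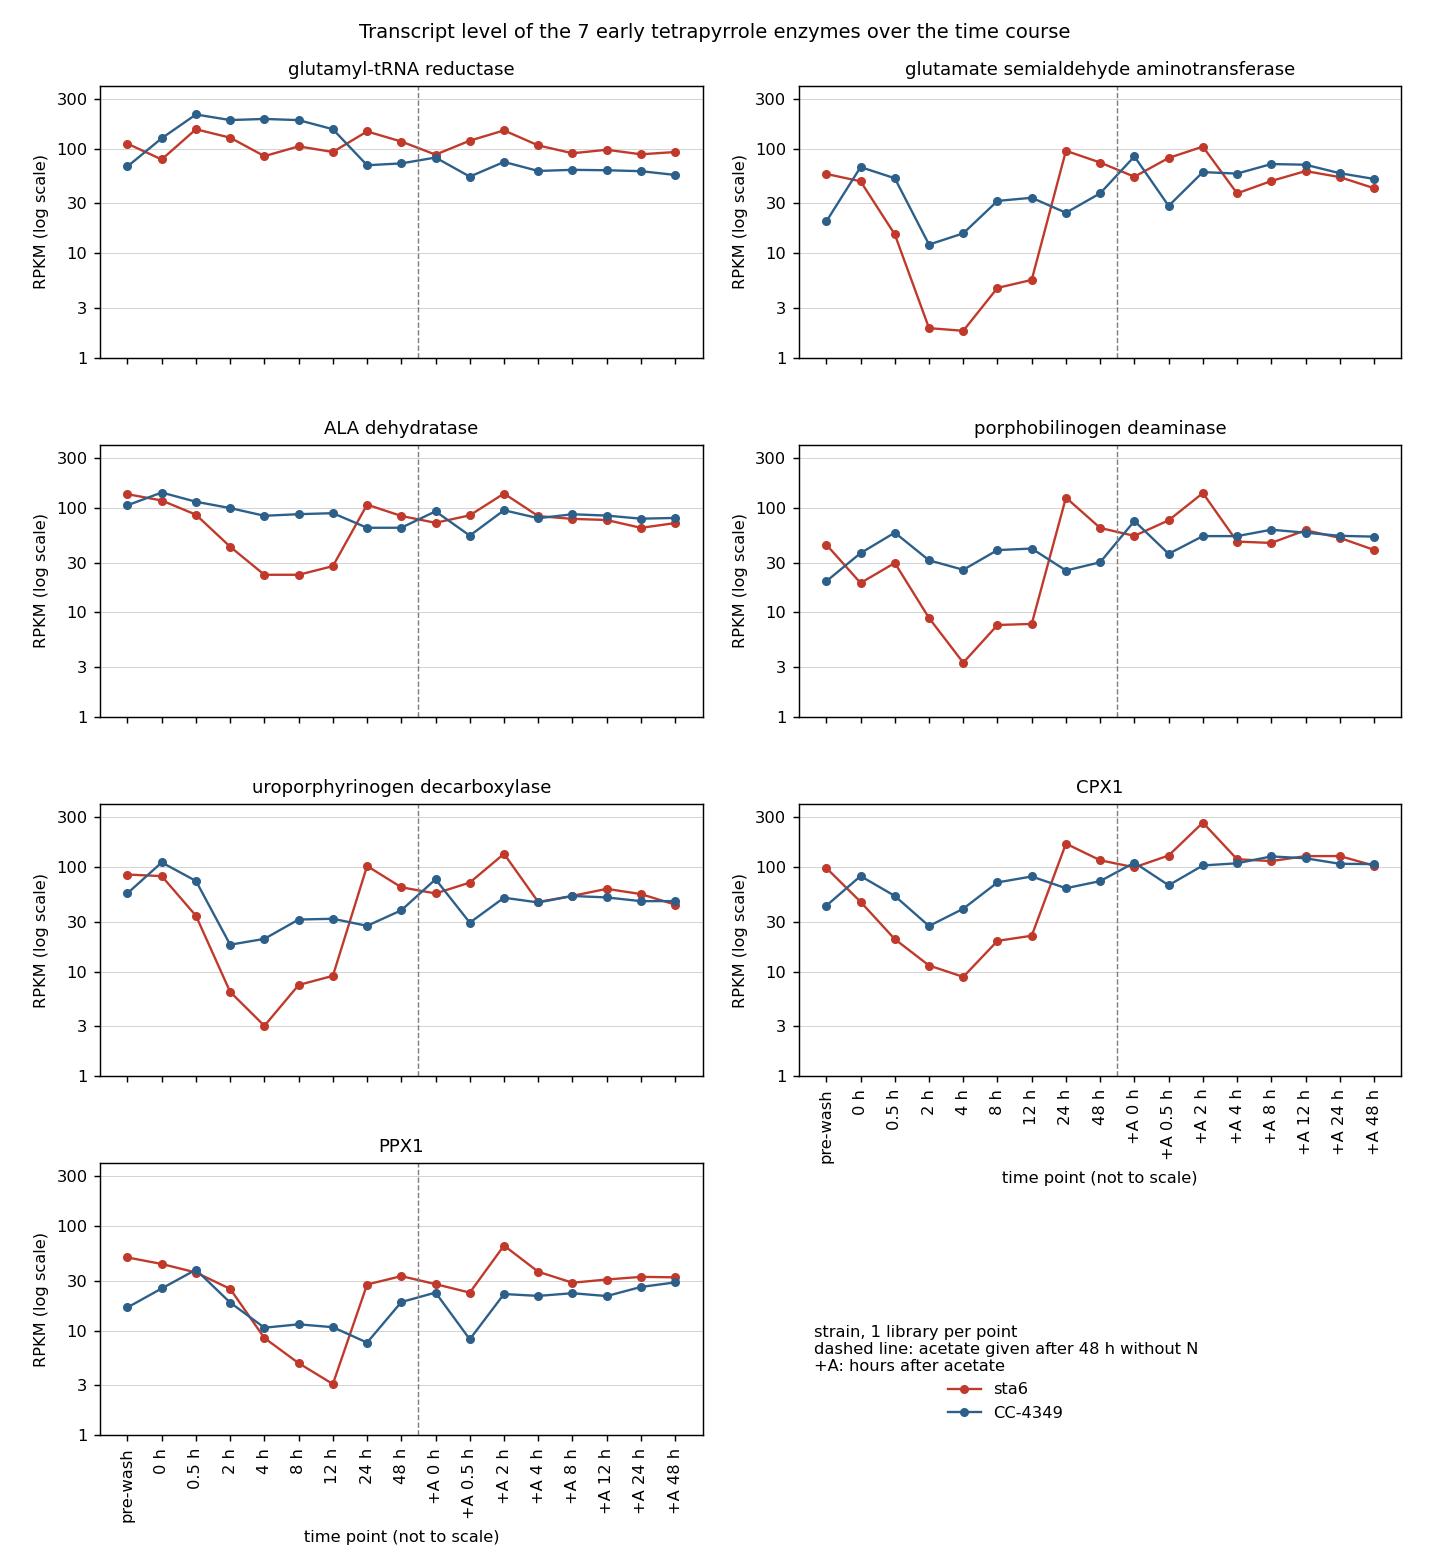
Level of each of the 7 transcripts in RPKM (log axis) at the 17 time points in sta6 (red) and CC-4349 (blue), 1 library per point, with the boost marked by a dashed line. In sta6 all but glutamyl-tRNA reductase dip between 2 and 12 h without nitrogen, glutamate semialdehyde aminotransferase to 1.81 RPKM at 4 h, and at 24 h those other than ALA dehydratase and PPX1 stand above both replete libraries.

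The reductase, which makes glutamate semialdehyde from glutamyl-tRNA, did not share the course of the other enzymes. Its level in sta6 was 112 RPKM before the wash and 79.0 RPKM at 0 h, then 154, 128 and 85.0 RPKM in early starvation, 105 and 93.1 RPKM in middle starvation, and 146, 117 and 87.8 RPKM in late starvation. The CC-4349 libraries had 67.7 RPKM before the wash and 126 RPKM at 0 h, then 213, 188 and 193 RPKM in early starvation, 188 and 154 RPKM in middle starvation, and 69.5, 72.4 and 82.4 RPKM in late starvation. The 5 CC-4349 libraries from 0.5 to 12 h were all above both replete libraries of that strain and above every late one, whereas the phases of sta6 overlapped. At each of these 5 time points the sta6 library was below the CC-4349 library.

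The next enzyme, the aminotransferase, turns glutamate semialdehyde into ALA. Its level in sta6 was 57.4 RPKM before the wash and 48.8 RPKM at 0 h, then 15.2, 1.93 and 1.81 RPKM in early starvation, 4.67 and 5.57 RPKM in middle starvation, and 95.6, 73.8 and 54.0 RPKM in late starvation. All 5 sta6 libraries from 0.5 to 12 h lay below both replete libraries and below all 3 late ones. In CC-4349 its level was 20.2 RPKM before the wash and 66.8 RPKM at 0 h, then 52.2, 12.1 and 15.5 RPKM in early starvation, 31.7 and 33.97 RPKM in middle starvation, and 24.4, 37.5 and 84.4 RPKM in late starvation. There the replete pair itself spanned most of the range, and every later phase of starvation overlapped it.

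The following enzymes carry out some of the steps that assemble the tetrapyrrole ring. ALA dehydratase joins ALA molecules into porphobilinogen. Its level in sta6 was 135 RPKM before the wash and 118 RPKM at 0 h, then 86.0, 42.5 and 22.9 RPKM in early starvation, 22.9 and 27.7 RPKM in middle starvation, and 107, 83.6 and 72.0 RPKM in late starvation. The CC-4349 libraries had 106 RPKM before the wash and 140.2 RPKM at 0 h, then 114, 99.5 and 84.0 RPKM in early starvation, 87.0 and 89.0 RPKM in middle starvation, and 64.5, 64.5 and 92.7 RPKM in late starvation. The middle libraries were below the replete ones in both strains, those of sta6 by far the lowest, and in sta6 the late libraries stood between the middle and the replete ones.

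Porphobilinogen deaminase links porphobilinogen units into the linear tetrapyrrole hydroxymethylbilane. Its level in sta6 was 44.5 RPKM before the wash and 19.1 RPKM at 0 h, then 29.7, 8.84 and 3.31 RPKM in early starvation, 7.58 and 7.76 RPKM in middle starvation, and 125, 64.2 and 54.0 RPKM in late starvation. The late sta6 libraries were above both replete libraries, and the middle ones below them, while the early ones overlapped them because 0.5 h was above 0 h. In CC-4349 its level was 19.9 RPKM before the wash and 36.9 RPKM at 0 h, then 57.9, 31.5 and 25.6 RPKM in early starvation, 39.5 and 40.8 RPKM in middle starvation, and 25.2, 30.2 and 74.9 RPKM in late starvation. The lowest of these CC-4349 libraries was the one before the wash.

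Uroporphyrinogen decarboxylase forms coproporphyrinogen III, the substrate of CPX1. Its level in sta6 was 84.6 RPKM before the wash and 81.8 RPKM at 0 h, then 34.2, 6.39 and 3.02 RPKM in early starvation, 7.44 and 9.09 RPKM in middle starvation, and 102, 63.9 and 55.8 RPKM in late starvation. The CC-4349 libraries had 56.0 RPKM before the wash and 110.5 RPKM at 0 h, then 73.5, 18.1 and 20.5 RPKM in early starvation, 31.4 and 32.0 RPKM in middle starvation, and 27.4, 38.5 and 76.3 RPKM in late starvation. The middle libraries of both strains lay below both replete ones. The level at 4 h was 28.0-fold below that before the wash in sta6 and 2.73-fold below it in CC-4349.

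The last 2 enzymes are oxidases on the way to protoporphyrin IX. CPX1, whose gene is known in Chlamydomonas to respond to copper and oxygen supply, forms protoporphyrinogen IX. Its level in sta6 was 97.8 RPKM before the wash and 46.4 RPKM at 0 h, then 20.4, 11.4 and 8.89 RPKM in early starvation, 19.6 and 22.0 RPKM in middle starvation, and 167, 116 and 99.2 RPKM in late starvation. In CC-4349 its level was 42.6 RPKM before the wash and 81.9 RPKM at 0 h, then 52.9, 27.2 and 39.9 RPKM in early starvation, 71.2 and 81.1 RPKM in middle starvation, and 62.6, 73.3 and 110.0 RPKM in late starvation. The early and middle sta6 libraries lay below all other sta6 libraries of this period and below every CC-4349 library of their own phase.

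PPX1, which makes protoporphyrin IX itself, was slower to decline in sta6. Its level there was 50.1 RPKM before the wash and 43.4 RPKM at 0 h, then 36.0, 25.1 and 8.501 RPKM in early starvation, 4.89 and 3.09 RPKM in middle starvation, and 27.6, 33.2 and 27.9 RPKM in late starvation. It was the only one of the 7 with its lowest sta6 value at 12 h, 16.2-fold below the level before the wash, and its late libraries remained below the replete ones. The CC-4349 libraries had 16.7 RPKM before the wash and 25.3 RPKM at 0 h, then 38.2, 18.6 and 10.7 RPKM in early starvation, 11.5 and 10.8 RPKM in middle starvation, and 7.68, 18.8 and 23.1 RPKM in late starvation. The replete libraries of sta6 were above those of CC-4349 for this transcript, which held for no other of the 7.

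The first comparison asked which of these transcripts changed soon after nitrogen was removed. Averaged over the strains, 3 of the 7 fell in early starvation against replete cells and 0 rose. The change was -2.20 (SE 0.43) for uroporphyrinogen decarboxylase, -2.07 (SE 0.44) for glutamate semialdehyde aminotransferase and -1.46 (SE 0.26) for CPX1 on the log2(RPKM + 1) scale, which understates the change of low genes. A transcript was called where limma gave an adjusted p under 0.05 and the change reached 2-fold, and the highest adjusted p of these 3 was 0.000651. Over all genes tested 4.73% were called lower. The median of the 7 was -0.90, against 0.23 for all genes. In middle starvation 4 of the 7 fell and 0 rose, against 6.46% of all genes called lower. These were uroporphyrinogen decarboxylase at -2.24 (SE 0.47), PPX1 at -2.06 (SE 0.39), glutamate semialdehyde aminotransferase at -1.65 (SE 0.49) and ALA dehydratase at -1.37 (SE 0.25), with a highest limma adjusted p of 0.00626. The median of the 7 was -1.37, against 0.24 for all genes. These fits took the matched time points of the 2 strains as independent. With time point as a random block the counts were again 3 and 4, with larger limma adjusted p. For the aminotransferase, the highest of each set, it was 0.0094 (SE 0.58) in early and 0.0416 (SE 0.64) in middle starvation. The call on the aminotransferase in middle starvation was lost without CC-4349 at 0 h, with a change of -1.24 and a limma adjusted p of 0.0586. The strains were also compared one by one, a choice made after the data were seen.

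In sta6, 5 of the 7 fell in early starvation, all but glutamyl-tRNA reductase and PPX1, where 5.88% of all genes were called lower. The mean level of glutamate semialdehyde aminotransferase was 6.30 ± 7.68 RPKM in early starvation (SD, n = 3), against 53.1 ± 6.09 RPKM in replete sta6 (SD, n = 2), a log2 change of -3.40 (SE 0.63). Uroporphyrinogen decarboxylase averaged 14.5 ± 17.1 RPKM, against 83.2 ± 2.03 RPKM in replete sta6, a change of -3.05 (SE 0.61). CPX1 averaged 13.6 ± 6.05 RPKM, against 72.1 ± 36.3 RPKM in replete sta6, a change of -2.31 (SE 0.37). The changes of ALA dehydratase, -1.50 (SE 0.33), and porphobilinogen deaminase, -1.47 (SE 0.56), were smaller, and the limma adjusted p of the deaminase, 0.0452, was close to the threshold. With time point as a random block it was 0.0775, and 17 of 34 fits that each left out 1 library lost this call. PPX1 had a change of -1.19 (SE 0.50) with a limma adjusted p of 0.0677, and glutamyl-tRNA reductase one of 0.33 (SE 0.24). The 7 had a median of -1.50, against 0.24 for all genes.

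In CC-4349, 1 of the 7 rose in early starvation and 0 fell, where 6.26% of all genes were called higher. The riser was glutamyl-tRNA reductase, with 198 ± 13.0 RPKM in early starvation (SD, n = 3), against 96.9 ± 41.2 RPKM in replete CC-4349 (SD, n = 2), a log2 change of 1.09 (SE 0.24, limma adjusted p = 0.00298). The call rested on the fold threshold and on the replete pair. The change was 0.87 with median-of-ratios scaling and 0.96 with quantile normalization, both under 2-fold, and 0.64 without the library before the wash, with a limma adjusted p of 0.107. The count was 2 without either strain's 0.5 h library, when uroporphyrinogen decarboxylase was also called lower. The median of all 7 was -0.30, against 0.21 for all genes. For the other 6 the changes lay between -1.35 and 0.40, and those of the aminotransferase, PPX1 and porphobilinogen deaminase changed sign when 1 library was left out.

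In middle starvation 6 of the 7 fell in sta6, all but glutamyl-tRNA reductase, where 7.47% of all genes were called lower. The changes were -3.28 (SE 0.55) for PPX1, -3.19 (SE 0.66) for uroporphyrinogen decarboxylase, -3.14 (SE 0.69) for glutamate semialdehyde aminotransferase, -2.28 (SE 0.36) for ALA dehydratase, -1.80 (SE 0.61) for porphobilinogen deaminase and -1.65 (SE 0.40) for CPX1. Among these the limma adjusted p was at most 0.0228. The median of the 7 was -2.28, against 0.30 for all genes. All 6 were called under every other scaling, filter, pseudocount and block that was run. Without the sta6 library before the wash, porphobilinogen deaminase and CPX1 were no longer called and the count was 4. Without sta6 at 8 h or at 12 h the deaminase was not called. Glutamyl-tRNA reductase stood at 99.3 ± 8.67 RPKM in middle starvation, against 95.3 ± 23.1 RPKM in replete sta6 (SD, n = 2 each), a change of 0.08 (SE 0.26) that was -0.23 with median-of-ratios scaling.

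In CC-4349, 0 of the 7 were called in middle starvation by limma, where 18.1% of all genes were called in either direction, and 1 had an unadjusted p under 0.05. This was glutamyl-tRNA reductase, with 171 ± 24.2 RPKM in middle starvation, against 96.9 ± 41.2 RPKM in replete CC-4349 (SD, n = 2 each), a change of 0.87 (SE 0.26, limma adjusted p = 0.013) that fell short of 2-fold. It was called with a change of 1.31 when the 0 h library of CC-4349 was left out, and with 1.02 when that of 12 h was. The changes of the other 6 lay between -1.29 for uroporphyrinogen decarboxylase and 0.55 for porphobilinogen deaminase. The 7 had a median of -0.16, against 0.21 for all genes.

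**Figure D2:**
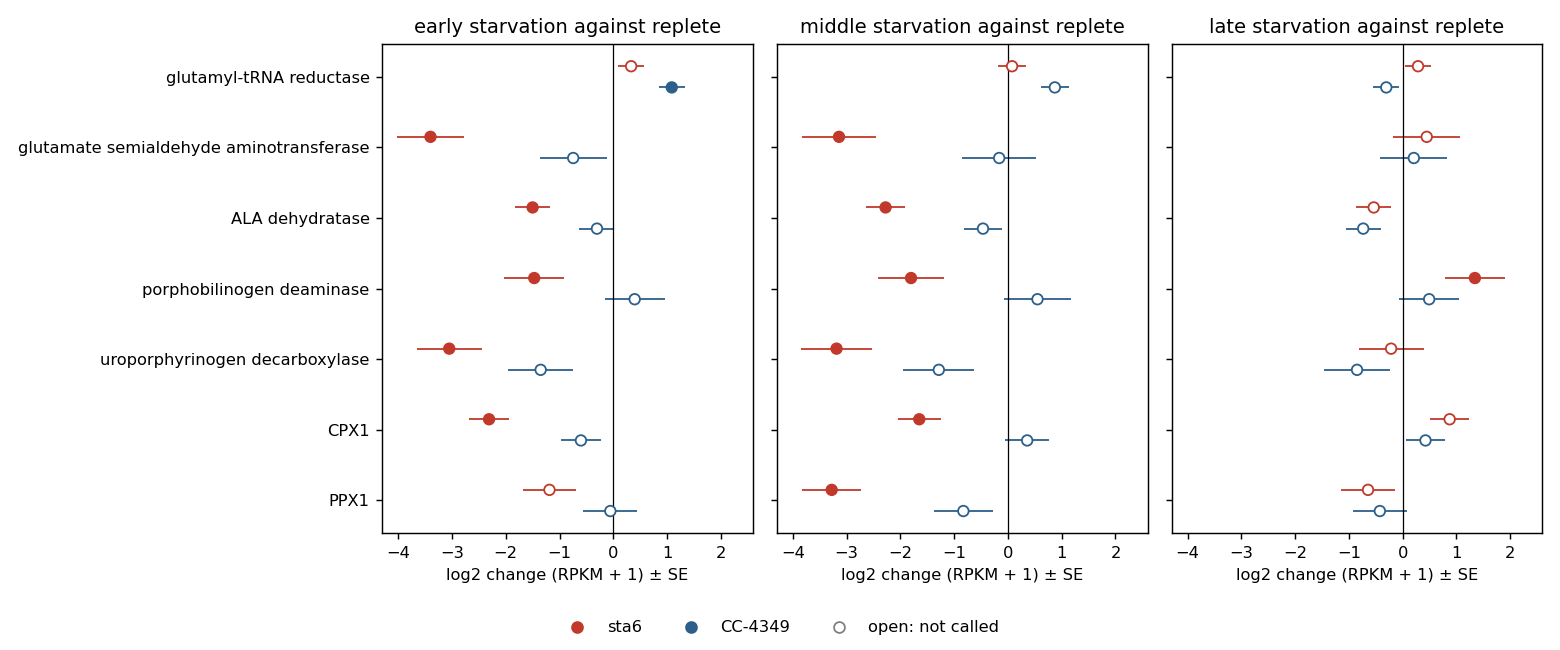
Log2 change of each transcript against replete cells (RPKM + 1, bars 1 SE) in early, middle and late starvation, for sta6 (red) and CC-4349 (blue), with filled points called by limma. In middle starvation the sta6 points of 6 transcripts lie between -3.28 and -1.65 and are filled, whereas no CC-4349 point is.

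Whether these responses differed between the strains was tested directly as the change in sta6 minus the change in CC-4349. For early starvation all 7 differences were negative, with a median of -1.70 against 0.02 for all genes. In limma 0 of the 7 were called, as were 0.110% of all genes. An unadjusted p under 0.05 was reached by 5 of the 7, a count given without the share of all genes at that threshold. With time point as a random block, a fit that called 1.23% of all genes lower, 3 of the 7 were called, namely glutamate semialdehyde aminotransferase (-2.66, limma adjusted p = 0.0236), CPX1 (-1.71, adjusted p = 0.0281) and ALA dehydratase (-1.20, adjusted p = 0.0499). The same 3 were called without the sta6 library at 0.5 h, in which each of the 7 stood highest of its phase. For middle starvation all 7 differences were again negative, with a median of -2.01 against 0.01 for all genes. In limma 0 of the 7 were called, as were 0.482% of all genes. An unadjusted p under 0.05 was reached by 6 of the 7, again without that share of all genes. With the random block, which called 3.01% of all genes lower, 5 of the 7 were called, the highest limma adjusted p being 0.0344 for porphobilinogen deaminase (-2.35), and uroporphyrinogen decarboxylase (-1.90, adjusted p = 0.0631) and glutamyl-tRNA reductase (-0.80, adjusted p = 0.0977) were not. The fit without the block called 1, ALA dehydratase, when sta6 at 0.5 h or at 4 h was left out, and 1, CPX1 (-3.00), when both strains lacked their 0 h and boost 0.5 h libraries.

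The sta6 transcripts did not stay low. Late against middle starvation, 6 of the 7 rose in sta6, all but glutamyl-tRNA reductase, where 5.29% of all genes were called higher. Glutamate semialdehyde aminotransferase averaged 74.5 ± 20.8 RPKM in late starvation (SD, n = 3), against 5.12 ± 0.634 RPKM in middle starvation (SD, n = 2), a log2 change of 3.59 (SE 0.63). Porphobilinogen deaminase averaged 81.2 ± 38.6 RPKM in late starvation, against 7.67 ± 0.127 RPKM in middle starvation, a change of 3.15 (SE 0.56). The other changes were 2.97 (SE 0.61) for uroporphyrinogen decarboxylase, 2.64 (SE 0.50) for PPX1, 2.52 (SE 0.37) for CPX1 and 1.74 (SE 0.33) for ALA dehydratase. The highest limma adjusted p of the 6 was 0.00069, and the same count of 6 was reached in every alternative and without any 1 library. The 7 had a median of 2.64, against -0.04 for all genes. The step lay between 12 and 24 h, where the aminotransferase was 17.2-fold higher at 24 h than at 12 h and porphobilinogen deaminase 16.1-fold higher.

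In CC-4349 the same comparison called 1 of the 7, and it was lower, where 2.96% of all genes were called lower. Glutamyl-tRNA reductase averaged 74.8 ± 6.75 RPKM in late starvation (SD, n = 3), against 171 ± 24.2 RPKM in middle starvation (SD, n = 2), a log2 change of -1.18 (SE 0.24, limma adjusted p = 0.00313). Without CC-4349 at 8 h the change was -1.03 and the limma adjusted p 0.166. The median of all 7 was 0.07, against 0.10 for all genes. The other 6 had changes between -0.27 and 0.44, and those of the aminotransferase, CPX1 and porphobilinogen deaminase changed sign when 1 library was left out.

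The late against middle change differed between the strains for 5 of the 7, all in the direction of a higher change in sta6, where 1.55% of all genes were called higher. The difference, sta6 minus CC-4349, was 3.22 (SE 0.89, limma adjusted p = 0.0488) for glutamate semialdehyde aminotransferase and 3.20 (SE 0.79, adjusted p = 0.0247) for porphobilinogen deaminase. For CPX1 it was 2.46 (SE 0.52, limma adjusted p = 0.0085), for ALA dehydratase 2.01 (SE 0.46, adjusted p = 0.0147) and for glutamyl-tRNA reductase 1.39 (SE 0.34, adjusted p = 0.0227). The reductase fell in CC-4349 and had a change of 0.21 (SE 0.24) in sta6, which was not called. Uroporphyrinogen decarboxylase (2.54, limma adjusted p = 0.136) and PPX1 (2.23, adjusted p = 0.102) did not pass. The median of the 7 was 2.46, against -0.18 for all genes. With time point as a random block, where 3.80% of all genes were called higher, all 7 were called, with a highest limma adjusted p of 0.00469. The call on the aminotransferase was kept in 11 of 34 fits that each left out 1 library, with a highest limma adjusted p of 0.191, and was lost with a pseudocount of 5 (adjusted p = 0.0553) and with no filter (adjusted p = 0.0699). The number of calls moved with single libraries. It was 0 without CC-4349 at 12 h, 1 without CC-4349 at 8 h or without sta6 at 8 h, 2 without CC-4349 at 24 h, sta6 at 12 h or sta6 at 24 h, and 3 when CC-4349 at 48 h was left out. All 7 differences stayed positive, between 1.21 and 3.70 with 1 library left out and between 1.305 and 3.915 in the other alternatives.

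**Figure D3:**
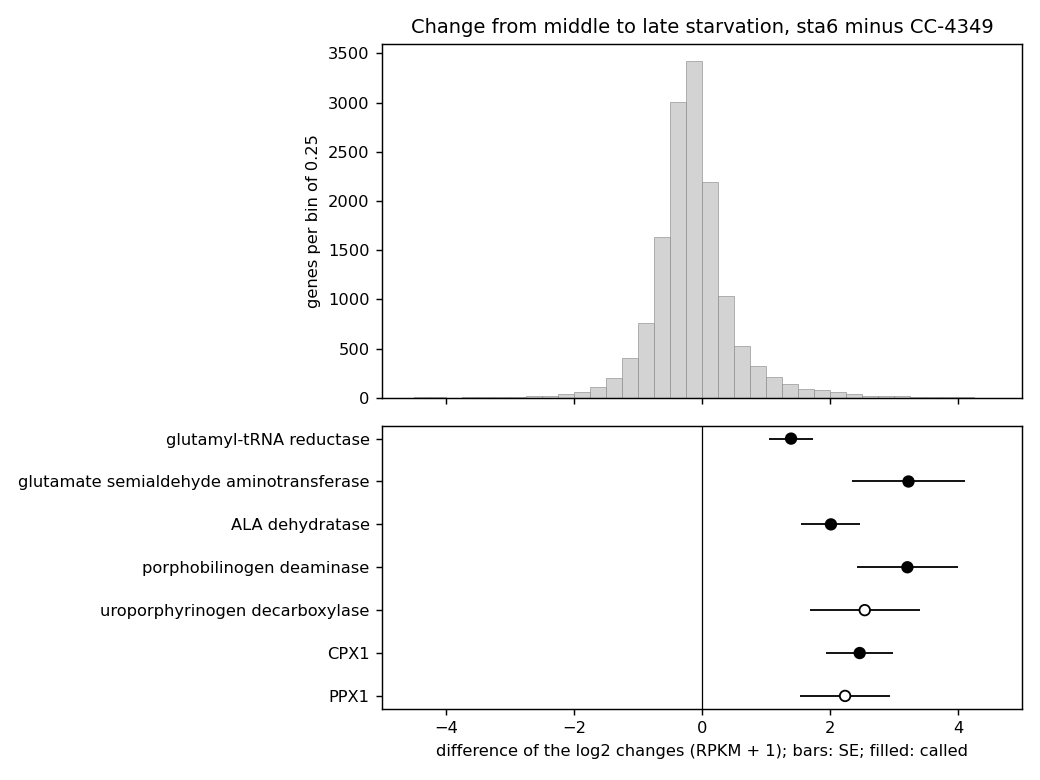
Difference between the strains (sta6 minus CC-4349) in the log2 change of late against middle starvation: the 14513 genes tested as a histogram in bins of 0.25 (top) and the 7 transcripts with 1 SE (bottom), filled where called by limma. The axis is drawn from -5 to 5, so the few genes above 6.5 are not shown. The 7 lie between 1.39 and 3.22, to the right of the bulk of genes, whose median is -0.18.

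Late against replete cells, few of these transcripts were called. Averaged over the strains 0 of the 7 were called by limma, where 29.9% of all genes were. An adjusted p under 0.05 was reached by 3, ALA dehydratase, CPX1 and porphobilinogen deaminase, whose changes were below 2-fold, and the same 3 had an unadjusted p under 0.05. The median of the 7 was -0.01, against 0.26 for all genes. The count was 1 without any 1 of CC-4349 at 0 h, 24 h or 48 h, sta6 before the wash, or sta6 at 0 h after the boost. In sta6 alone 1 rose and 0 fell, where 18.0% of all genes were called higher. This was porphobilinogen deaminase, with 81.2 ± 38.6 RPKM in late starvation (SD, n = 3), against 31.8 ± 17.9 RPKM in replete sta6 (SD, n = 2), a log2 change of 1.34 (SE 0.56). Its limma adjusted p was 0.0471 and did not hold, being 0.0814 with the random block, 0.184 without sta6 at 24 h and 0.421 without sta6 at 0 h, and only 13 of 34 fits without 1 library kept the call. In sta6 the 7 had a median of 0.29, against 0.21 for all genes. In CC-4349 0 of the 7 were called by limma, where 29.3% of all genes were, and 1 had an unadjusted p under 0.05. The median there was -0.31, against 0.30 for all genes. The late against replete change was not called as different between the strains for any of the 7, where 2.86% of all genes were, and 0 had an unadjusted p under 0.05.

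No difference between the strains passed the test over the whole course. In limma 0 of the 7 were called for the difference over 17 matched time points, where 5.83% of all genes were called, and 1, PPX1, had an unadjusted p under 0.05. The 7 differences lay between -0.45 and 0.43, with a median of -0.20, against -0.05 for all genes. This average joined opposite periods. Before the wash all 7 transcripts were higher in the sta6 library than in the CC-4349 library, by a median of 1.12 on the log2(RPKM + 1) scale, and at 0 h 1 of the 7 was. At 4, 8 and 12 h without nitrogen 0 of the 7 were higher in sta6, with median differences of -2.05, -1.88 and -1.71. At 24 h all 7 were higher in sta6, with a median of 1.72, and at 48 h all 7 still were, with a median of 0.72. The last sample of late starvation, 0 h of the boost, went the other way, with 2 of the 7 higher in sta6, 5 lower and a median of -0.36. These are differences of single libraries, and over all genes their median lay between -0.23 and 0.07.

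**Figure D4:**
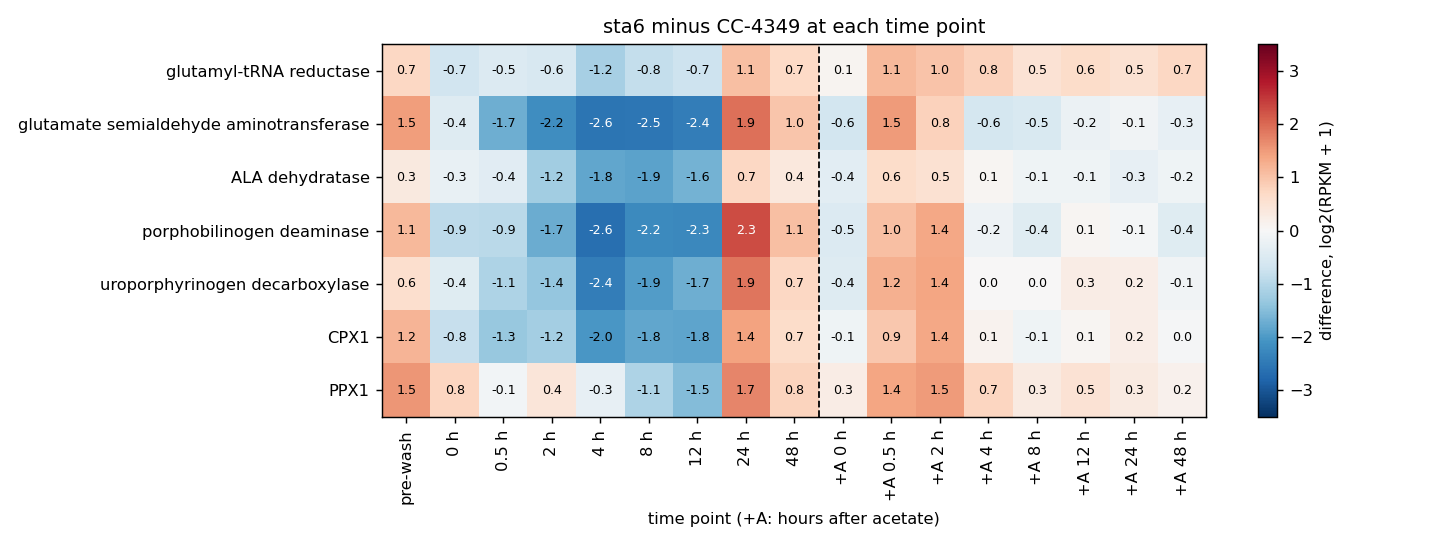
Difference of each transcript between the 2 libraries of a time point (sta6 minus CC-4349, log2 of RPKM + 1), red where sta6 was higher and blue where it was lower. The columns from 0.5 to 12 h are blue except for PPX1 at 2 h (0.42), and those at 24 and 48 h are red, with median differences of -1.71 at 12 h and 1.72 at 24 h. At 0 h of the boost 5 of the 7 are blue.

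Of the boost samples of sta6, the one at 2 h held the highest level of all 7 transcripts. CPX1 in sta6 began the boost at 99.2 RPKM, had 129, 266 and 118 RPKM in the early boost and 114, 127, 127 and 103 RPKM in the late boost. CPX1 in CC-4349 began it at 110.0 RPKM, had 66.9, 103 and 108 RPKM in the early boost and 126, 121, 107 and 106 RPKM in the late boost. The value of sta6 at 2 h was the highest of any of the 7 transcripts in any library. At that time porphobilinogen deaminase had 138.5 RPKM in sta6, against 53.7 RPKM in CC-4349. Uroporphyrinogen decarboxylase had 134 RPKM in sta6, against 50.8 RPKM in CC-4349, and PPX1 had 65.1 RPKM in sta6, against 22.4 RPKM in CC-4349. In the first 2 boost samples after 0 h, all 7 were higher in sta6 than in CC-4349, with median differences of 1.13 and 1.35, and at 4 h 5 of the 7 were, with a median of 0.07. The boost sample of 0.5 h in CC-4349 had its lowest level of glutamyl-tRNA reductase, 54.1 RPKM, and of ALA dehydratase, 54.2 RPKM.

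The early boost against late starvation called 0 of the 7 in limma, where 1.28% of all genes were called, and 0 had an unadjusted p under 0.05. The median of the 7 was 0.11, against -0.12 for all genes. The late boost called 0 of the 7, where 0.579% of all genes were called, and 1, glutamyl-tRNA reductase, had an unadjusted p under 0.05. The median was -0.04, against -0.06 for all genes. The reductase averaged 60.6 ± 3.04 RPKM in the late boost of CC-4349 (SD, n = 4), against 74.8 ± 6.75 RPKM in its late starvation (SD, n = 3), and its 4 late boost libraries were below all 3 of late starvation. The early boost was not called as different between the strains for any of the 7, where 0.00689% of all genes were, and 0 had an unadjusted p under 0.05. The phase means hold the 2 h peak of sta6 together with lower libraries at 0.5 and 4 h, and a peak in 1 library cannot be tested. All boost cultures received acetate, so its addition cannot be told apart from elapsed time.

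The 6 transcripts other than glutamyl-tRNA reductase had higher correlations with each other over time in sta6 than in CC-4349. Across the 17 libraries of sta6, Pearson's r between their log2 levels lay between 0.64 and 0.98 over 15 pairs, with a median of 0.90. Across the 17 libraries of CC-4349 it lay between -0.14 and 0.90, with a median of 0.55. Pairs with glutamyl-tRNA reductase had r between 0.14 and 0.40 in sta6 and between -0.60 and 0.51 in CC-4349. These values describe successive libraries of a strain, in which all genes share depth and scaling, and carry no test.

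The later steps of the pathway were counted in lists of 13 loci for the magnesium branch to chlorophyll and 2 loci for the bilin branch, drawn up from general knowledge of Chlamydomonas identifiers and not annotated in the files. In early starvation of sta6, 8 of the 13 loci of the chlorophyll branch fell and 1 rose, where 5.88% of all genes were called lower and 11.2% higher. In early starvation of CC-4349, 0 fell and 1 rose, where 1.84% of all genes were called lower and 6.26% higher. With 1 library left out, between 0 and 4 fell there and between 0 and 2 rose. In middle starvation of sta6, 9 fell and 0 rose, where 7.47% of all genes were called lower. In middle starvation of CC-4349, 0 fell and 2 rose, where 4.93% of all genes were called lower and 13.2% higher. The number that rose there was 1 without CC-4349 before the wash, at 8 h or at 12 h, and 2 fell without the 0.5 h library of either strain or sta6 at 4 h. Late against middle starvation, 9 of the 13 rose in sta6, where 5.29% of all genes were called higher, and the number was 5 without sta6 at 8 h. In CC-4349, 3 fell, where 2.96% of all genes were called lower, and the number was 0 when CC-4349 at 8 h was left out, and 1 when CC-4349 at 12 h or 48 h was. The difference between the strains was called for 8, all with a higher change in sta6, where 1.55% of all genes were called higher, and the median of the 13 was 2.31, against -0.18 for all genes. That count was 3 without CC-4349 at 8 h and 4 without either sta6 at 8 h or CC-4349 at 12 h. It was 5 when sta6 at 12 h, sta6 at 24 h or CC-4349 at 24 h was left out. The median level of the 13 loci was 7.98 RPKM in sta6 at 4 h and 80.9 RPKM at 24 h, against 30.4 RPKM (4 h) and 23.9 RPKM (24 h) in CC-4349. The difference between the strains in early and in middle starvation was called for 0 of the 13. The same fit called 0.110% and 0.482% of all genes in either direction. Alternative settings called up to 4 and 10 of the 13 lower, but these counts are not to be set against those shares. One such setting, the random block, called 1.23% and 3.01% of all genes lower. Late against replete cells, 3 rose and 4 fell in sta6, where 18.0% of all genes were called higher and 13.3% lower. These counts rested on the replete pair. Without sta6 before the wash 3 rose and 0 fell, and without sta6 at 0 h 1 rose and 2 fell. In CC-4349, 1 rose and 5 fell, where 20.1% of all genes were called higher and 9.24% lower. With 1 library left out, between 1 and 2 rose there and between 2 and 6 fell. Neither of the 2 bilin loci was called in any comparison.

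Among 14506 other genes, those with the profile most like the mean profile of the 7 over 34 libraries were Cre01.g050950 (Pearson's r = 0.97) and Cre05.g242000 (r = 0.93), both on the chlorophyll list. Cre01.g050950 stood at 127 RPKM before the wash, 8.36 RPKM at 4 h and 182 RPKM at 24 h in sta6, and at 54.7 RPKM, 61.1 RPKM and 48.6 RPKM at the same times in CC-4349. Of the 13 loci of that list, 4 were among the 20 most similar genes and 7 among the 100 most similar. The most opposed profiles were those of Cre08.g381850 (r = -0.78) and Cre42.g787250 (r = -0.77). Cre42.g787250 stood at 20.8 RPKM before the wash, 93.4 RPKM at 4 h and 24.9 RPKM at 24 h in sta6, and at 20.4 RPKM, 33.2 RPKM and 25.9 RPKM at the same times in CC-4349. The libraries behind these correlations are shared by all genes.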

How the data were processed

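RNA sequencing was analysed for 34 libraries of 2 strains at 17 time points. The table deposited by the authors holds gene models by libraries, with values taken to be RPKM because the values are not whole and low values of a gene are multiples of a step, within a tolerance of 0.06 reads. The name of the sta6 library at 24 h after the boost differed in its ending from the description of the sample. That library was matched by the rest of its name, which no other sample shares. Bowtie was the aligner, per the submitters' processing notes. The sources used here do not give its version, the genome build, the counting rule or the use of strand, so reads shared with overlapping genes cannot be told apart. The deposited RPKM were analysed as log2(RPKM + 1) in the 14513 of 17301 genes whose mean reached 1 RPKM. limma 3.58.1 (R 4.3.3, eBayes with its trend option) was run over all of these genes, with Benjamini-Hochberg adjustment, 12 strain-by-phase groups and 22 residual degrees of freedom. The strain difference had the time point as a fixed block. Matched time points deviated together (consensus correlation 0.528), so an alternative took time points as random blocks. The pairing is of time points named in the labels, not of shared cultures. Successive samples of a culture are dependent, which no fit covers. Nothing in the labels gives separate cultures as replicates. Medians over the 7 and counts carry no test of their own. Counts at an unadjusted p under 0.05 are given without the share of all genes at that threshold.

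The enzymes and the 2 lists were chosen with earlier results of these data known, and the comparisons of early and middle starvation within and between strains, and of late with middle starvation, were added after the values were seen. All 7 enzymes are described, and of other genes only the 2 with the highest and the 2 with the lowest correlation are named. The reference table (assembly Chlamydomonas_reinhardtii_v5.5) matched all 7 by locus tag and gave no symbols. In a simulation of 14513 genes, 100 were given each size of change and the noise of each library was drawn independently. Middle starvation recovered 88 of those with 1.5 on the log2 scale and 100 of those with 3. Its difference between strains recovered 34 and 89. In the data matched time points deviated together and far more genes changed, so these rates need not hold there. Alternatives were pseudocounts of 0.1 and 5, no filter, a mean of at least 5 RPKM, 2 other scalings, the block and leaving out libraries.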

Additional observations from a re-analysis of the deposited data

Results flagged for a closer look

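The change from middle to late starvation differed between sta6 and CC-4349 by limma's interaction test for 5 of the 7 transcripts. The difference of the log2 changes, sta6 minus CC-4349, was 1.39 for glutamyl-tRNA reductase, 3.22 for glutamate semialdehyde aminotransferase, 2.01 for ALA dehydratase, 3.20 for porphobilinogen deaminase and 2.46 for CPX1. The comparison was added after the data were seen, and the late phase includes the library at 0 h after the boost. Without the 0 h after the boost libraries of both strains 5 transcripts were called as well. The count was 0 without CC-4349 at 12 h, 1 without either strain at 8 h, 2 without CC-4349 at 24 h, sta6 at 12 h or sta6 at 24 h, and 3 when CC-4349 at 48 h was left out. The call on the aminotransferase was kept in 11 of 34 fits without 1 library. Of the 14 groups of 4 libraries, 1 per transcript and strain in the late boost, 0 held a library far from the other 3, where chance gives about 1 in 20.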

How the results depend on the processing

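Of 3696 alternative values of single transcripts, 3539 kept their direction and their side of the threshold, 100 lost a call, 34 gained one and 23 changed sign, none of these 23 in a value that was called. Many of the values that stayed were bound to do so. Leaving out a library of another phase cannot alter a change between 2 phases, only its p-value, and many values were never called. The share that stayed is therefore no measure of how firm the calls are. Counts of calls moved by over 1.5 times in 58 of 836 cases. For late starvation in sta6 the count of 1 was 0 with a pseudocount of 0.1, with no filter, with median-of-ratios scaling, with the random block and when the 0 h and boost 0.5 h libraries were left out, and 2 without the 0 h after the boost libraries or with them counted as early boost. For late starvation in CC-4349 it was 1 with median-of-ratios scaling. For early starvation in CC-4349 it was 0 with either scaling, and for middle starvation in CC-4349 it was 1 without the 0 h and boost 0.5 h libraries. The random replicate block raised early starvation by strain to 3 and middle starvation by strain to 5, and middle starvation by strain was 1 without the 0 h and boost 0.5 h libraries. With 1 library left out, counts ranged from 0 to 2 for late starvation in sta6 and early starvation in CC-4349, from 0 to 1 for late starvation over both strains, middle starvation in CC-4349, middle starvation by strain and late against middle starvation in CC-4349, from 0 to 3 for early starvation by strain and from 0 to 6 for late against middle starvation by strain. The change of glutamyl-tRNA reductase in middle starvation of sta6 was -0.23 with median-of-ratios scaling and -0.17 in the absence of the 0 h and boost 0.5 h libraries (-0.17 to 0.32 with 1 library left out). For late against middle starvation of CC-4349, CPX1 was -0.040 with median-of-ratios scaling, and without the 0 h after the boost libraries or with them counted as early boost CPX1 was -0.16 and glutamate semialdehyde aminotransferase -0.11. Without the 0 h and boost 0.5 h libraries glutamate semialdehyde aminotransferase was 0.094 in early and 0.68 in middle starvation of CC-4349, and PPX1 0.23 in early starvation of CC-4349. With 1 library left out, changes in CC-4349 ranged in early starvation from -1.58 to 0.094 for glutamate semialdehyde aminotransferase, from -0.033 to 0.83 for porphobilinogen deaminase and from -0.51 to 0.36 for PPX1. In middle starvation they ranged from -1.003 to 0.68 for glutamate semialdehyde aminotransferase and from -0.11 to 0.82 for CPX1. Late against middle they ranged from -0.53 to 0.24 for porphobilinogen deaminase, from -0.11 to 0.76 for glutamate semialdehyde aminotransferase and from -0.16 to 0.24 for CPX1. The cause of these changes was not tested. A phase of 2 libraries per strain and 1 culture per strain limit every p-value, and the shallow sta6 library at 2 h limits its low values.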
